A study of Mus musculus with 34 samples.

Results

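Liver macrophages were compared between mice with and without a deletion of Yap1 and Wwtr1, which encode the coactivators YAP and TAZ, directed at bile duct cells, in livers that received no toxicant. The comparison was defined by the genotype and group labels and takes 8 of the 34 libraries of the series, 4 knockout libraries (numbered 4, 5, 20 and 21 by their titles) and 4 control libraries (6, 7, 8 and 9). Knockout mice carried Yap fl/fl and Taz fl/fl alleles with Opn-CreERt2, a tamoxifen-inducible Cre recombinase driven by the osteopontin promoter, which is active in biliary epithelium. Controls were siblings with the same floxed alleles and no Cre driver. All mice were of a mixed B6;129P background and received tamoxifen at 1.6 mg/kg for 5 days when 7 to 8 weeks old, so that tamoxifen and both floxed alleles are shared by the 2 groups, and 3 weeks of washout followed. The Cre driver itself differs between the groups together with the deletion, and the 2 cannot be told apart. Macrophages were sorted from the non-parenchymal fraction as live F4/80+ CD45+ cells. The labels do not say whether each library came from its own mouse, so the p values below measure the spread between these libraries. In the other 8 macrophage libraries, 4 of each genotype, livers were taken 48 h after carbon tetrachloride (CCl4), and they enter here through a shared estimate of spread and a test of whether the genotype difference depended on CCl4.

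Most macrophages of the uninjured liver are Kupffer cells, resident phagocytes of the sinusoids that clear bacteria, aged erythrocytes and lipoproteins from portal blood. They carry the lectin Clec4f, the complement receptor Vsig4 and the scavenger-associated protein Cd5l, while macrophages that arise from recruited monocytes carry more Ccr2 and Cx3cr1. Lipid-laden macrophages of the steatotic or fibrotic liver express a set that includes Cd36, Lpl, Gpnmb and Trem2. YAP and TAZ are kept out of the nucleus by the Hippo kinases and, when nuclear, act with TEAD factors on genes of growth, matrix and cytoskeleton.

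The 8 libraries held 1035648 to 5128587 counts, and a count of 3, used here as the floor of detection, stood for 0.585 to 2.90 CPM, counts scaled to an equal library total. Control library 8 was the deepest and the only one of the 8 from the first of 2 numbered series of sequencing files. Levels below are CPM scaled by trimmed-mean (TMM) factors unless stated otherwise. The factors were 0.807 to 0.939 in controls and 0.955 to 1.10 in knockouts. List sums in CPM of the library total leave them out, so that controls stand lower against knockouts there than on the TMM scale. Differences are log2 fold changes of knockout over control with their standard error (SE) from 1 edgeR quasi-likelihood fit of all 16 macrophage libraries, and a gene is called at a Benjamini-Hochberg adjusted p under 0.05 over 10815 genes.

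Yap1 measured 13.98, 20.5, 23.5 and 32.5 CPM in knockout libraries 4, 5, 20 and 21 and 36.9, 9.56, 33.9 and 20.7 CPM in control libraries 6, 7, 8 and 9. Wwtr1 ranged from 11.5 to 40.3 CPM in knockouts and from 5.58 to 41.4 CPM in controls. The groups overlapped for both, with log2 fold changes of -0.19 (SE 0.61, adjusted p = 0.94 by edgeR) for Yap1 (GRCm38, chromosome 9, 7931999 to 8004596) and 0.06 (SE 0.72, adjusted p = 0.99 by edgeR) for Wwtr1 (chromosome 3, 57455649 to 57575910). Neither gene serves as a check of the genotype here: the driver is aimed at biliary cells rather than macrophages, and reads from the 3′ end may fall outside the floxed exons. Spp1, the gene of the driver's promoter, was also read in these libraries (below), and whether the Cre acted in macrophages was not tested.

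The sorted cells carried the markers of Kupffer cells in both groups. Clec4f stood at 2156, 3164, 2327 and 2584 CPM in the knockout libraries and at 2249.7, 2076, 2042 and 3144 CPM in the controls. Vsig4 ranged from 2074 to 2639.9 CPM in knockouts and 2182 to 2711 CPM in controls, and Cd5l from 3699 to 6929.7 and from 3676 to 4705 CPM. Of 23 Kupffer cell identity markers tested, 0 were called and the median log2 fold change was -0.05, against -0.00705 over all genes tested. The list of 24 summed to 28654 to 33344 CPM of the library total for knockouts and 21635 to 27893 in controls. This separation depends on a scale without the TMM factors, which were lower in every control than in any knockout. Timd4, a phosphatidylserine receptor of long-resident Kupffer cells, overlapped between the groups (373 to 530.4 and 354 to 712 CPM). Marco, a scavenger receptor, spread over 528 to 5269.8 CPM in knockouts, highest in libraries 4 and 5, and over 481 to 1365 CPM in controls. Folr2, another Kupffer cell marker, was at or near 0 in the knockouts (0, 0, 1.62 and 0.65 CPM), reached 15.4 and 22.3 CPM in control libraries 6 and 7, and was too low to be tested.

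Hepatocyte RNA was present in every library, and its share was lower on average in the knockouts. Alb, the transcript of serum albumin made by hepatocytes, took 0.552%, 0.908%, 0.275% and 0.397% of the counts of knockout libraries 4, 5, 20 and 21, and 0.946%, 1.11%, 0.789% and 0.985% of control libraries 6, 7, 8 and 9. Knockout library 5 lay within the range of the controls, and libraries 20 and 21 lay lowest. The log2 difference was -0.97 (exact two-sided permutation p = 0.0571, n = 4 and 4). Alb was also divided by its mean level in uninjured hepatocyte libraries of the same genotype, a ratio that was not tested. It came to 9.01%, 14.8%, 4.48% and 6.48% in knockout libraries 4, 5, 20 and 21. In control libraries 6, 7, 8 and 9 it came to 19.4%, 22.7%, 16.2% and 20.2%, all above the knockouts. A list of 24 hepatocyte markers took 1.38% ± 0.737 (SD, n = 4) in knockouts and 2.63% ± 0.183 (SD, n = 4) in controls, with no overlap and a log2 difference of -1.08 (exact two-sided permutation p = 0.0286, the smallest these groups can give, 0.0857 after adjustment over 3 measures). The third measure tested, the share of mitochondrially encoded transcripts, was 12.1% ± 4.37 (SD, n = 4) and 18.7% ± 4.53 (SD, n = 4), lower in knockouts by 0.68 on the log2 scale (exact permutation p = 0.143).

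**Figure D1:**
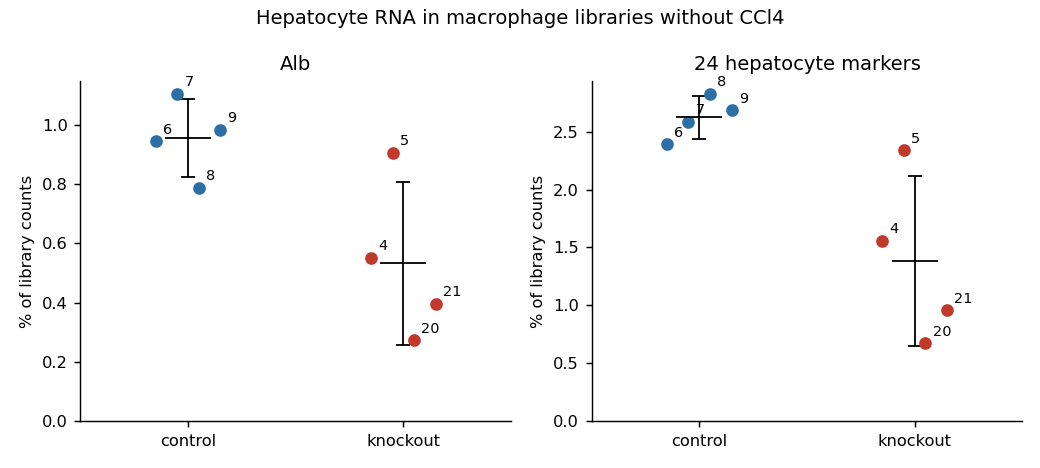
Share of each macrophage library's counts taken by Alb (left) and by 24 hepatocyte markers (right), in percent, with 1 point per library, its number beside it, and the mean ± SD of each group as bars. For the marker list the 4 controls lie between 2.39% and 2.83%, above all 4 knockouts, whose highest is library 5 at 2.34%.

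Between knockout and control macrophages 8 genes were called, 0.074% of those tested, with 6 lower (0.0555%) and 2 higher (0.0185%). At an unadjusted p under 0.05 there were 1164 genes, 583 higher (5.39%) and 581 lower (5.37%). In bulk RNA from sorted cells, fewer cells of a type and less RNA per cell cannot be told apart.

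The 3 lower genes with the largest change are transcripts of hepatocytes. Sult2a8, a cytosolic sulfotransferase of the liver that acts on bile acids (chromosome 7, 14410686 to 14446769), measured 0.823, 1.02, 0 and 1.95 CPM in knockout libraries 4, 5, 20 and 21 and 53.7, 67.7, 104 and 45.7 CPM in control libraries 6, 7, 8 and 9. The knockouts held 6 counts in all and did not overlap the controls, and the log2 difference was -6.03 (SE 0.70, adjusted p = 0.000964 by edgeR). Sult3a1, a sulfotransferase of the liver that conjugates amines (chromosome 10, 33857721 to 33879532), held 2 counts in all in the knockouts, both in library 5, and 16.8, 19.1, 19.6 and 32.8 CPM in the controls. Its pooled level was 56.7 times higher in controls (exact 95% counting interval 15.5 to 472), and it was called at an adjusted p of 0.0434 by edgeR. Hamp2, a paralog of the iron hormone hepcidin (chromosome 7, 30922372 to 30924681), measured 9.05, 10.2, 3.24 and 26.6 CPM in knockouts and 146, 192, 44.96 and 155 CPM in controls. Every control exceeded every knockout, and the log2 fold change was -3.42 (SE 0.56, adjusted p = 0.041 by edgeR). Members of these families are close in sequence, so counts can be split between them. Hamp, the main hepcidin gene, measured 46.9 to 241 CPM in knockouts and 182 to 337 CPM in controls (-0.63, SE 0.85, adjusted p = 0.84 by edgeR), and Sult2a1, named after its values were seen, 0.809 to 54.3 and 13.2 to 61.0 CPM.

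The other 3 lower genes are transcribed more widely, although Oat had at least 2-fold more CPM in control hepatocytes than in control macrophages. Oat, the mitochondrial ornithine aminotransferase (chromosome 7, 132557478 to 132576398), measured 78.6, 147, 116 and 142 CPM in knockouts and 277, 369, 391.7 and 284 CPM in controls. The groups did not overlap, and the log2 fold change was -1.46 (SE 0.23, adjusted p = 0.0277 by edgeR). A transcript annotated to Fgfr2 overlaps Oat on the same strand, and how the authors assigned such reads is not given. Aldh9a1, an aldehyde dehydrogenase that acts in carnitine synthesis (chromosome 1, 167349991 to 167368532), lay at 64.2, 59.4, 67.9 and 61.1 CPM in knockouts and at 133, 208, 127 and 105 CPM in controls. The knockout values lay close together and below the lowest control, for a log2 difference of -1.18 (SE 0.21, adjusted p = 0.0434 by edgeR). Ipmk, the inositol polyphosphate multikinase (chromosome 10, 71347763 to 71433327), measured 59.2, 86.0, 59.9 and 79.9 CPM in knockouts and 178, 171, 125 and 174 CPM in controls. Again no library overlapped, and the log2 fold change was -1.19 (SE 0.21, adjusted p = 0.0434 by edgeR).

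Both genes called higher were scarce in hepatocytes. Stap1, a signalling adaptor of blood cells that docks on activated receptor kinases (chromosome 5, 86071746 to 86106125), rose from 2.01, 3.19, 5.73 and 3.45 CPM in control libraries 6, 7, 8 and 9 to 18.9, 22.5, 15.4 and 34.4 CPM in knockout libraries 4, 5, 20 and 21. The lowest knockout was above the highest control, and the log2 difference was 2.54 (SE 0.45, adjusted p = 0.0434 by edgeR). Slc25a24, a mitochondrial carrier that exchanges ATP-Mg for phosphate (chromosome 3, 109123149 to 109168457), rose from 20.8, 23.9, 44.7 and 31.9 CPM to 99.5, 62.5, 104 and 70.8 CPM. Its log2 difference was 1.45 (SE 0.26, adjusted p = 0.0434 by edgeR), again without overlap. In uninjured hepatocytes Stap1 averaged 2.29 CPM of the library total in controls and 1.45 in knockouts, and Slc25a24 1.14 and 4.67 CPM.

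**Figure D2:**
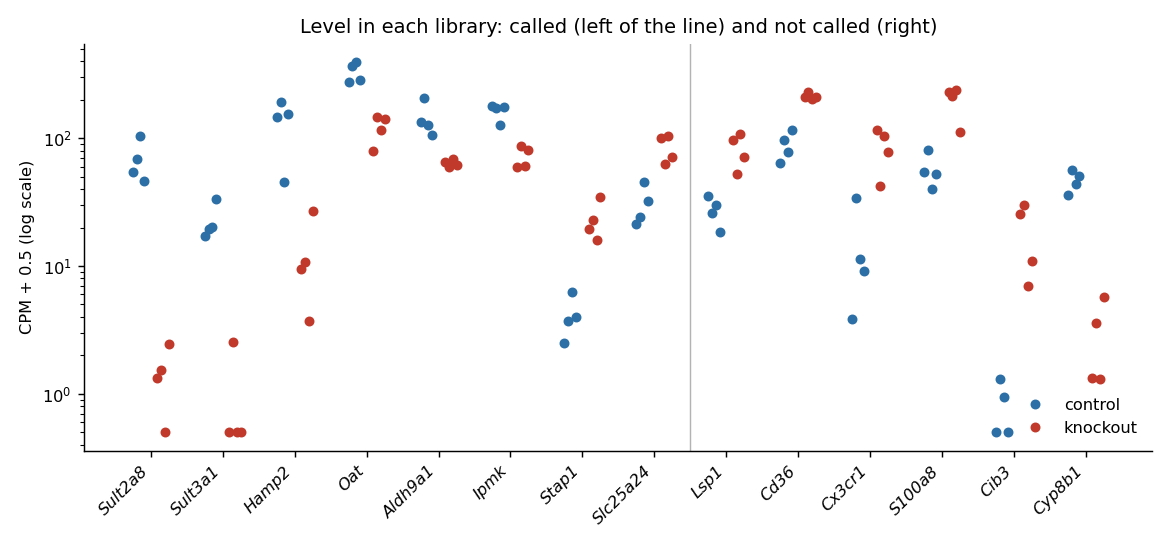
CPM + 0.5 on a log axis for the 8 called genes and for 6 genes that were not called, with 1 point per library and controls to the left of knockouts for each gene. For every called gene the 4 knockout points lie wholly above or wholly below the 4 control points, as for Stap1, whose lowest knockout value of 15.4 CPM exceeds the highest control value of 5.73 CPM.

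The number of calls was small and moved with the libraries and the model. Leaving out knockout library 4 or knockout library 20 left 1 call, Sult2a8, and leaving out knockout library 21 or control library 6 left 2. Without control library 7 there were 3 calls and without knockout library 5 there were 5, while without control library 8, which leaves only the second file series on both sides, there were 8. Without control library 9 there were 10. The 8 genes above made up 1, 3, 6 and 4 of the calls without libraries 7, 5, 8 and 9. Leaving out controls 6 and 7 together left 1 call, and leaving out knockouts 20 and 21 together left 0 (813 genes at an unadjusted p under 0.05). Sult2a8 was called without each single library, Oat in 4 of these 8 fits, Hamp2 in 3, and the other 5 genes in 1 each. All 8 kept their direction throughout.

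When only the 8 libraries were fitted, the spread was estimated without the CCl4 libraries and 184 of 9774 genes were called, 39 higher (0.399%) and 145 lower (1.48%), all 8 genes above among them. The 145 lower genes were largely transcripts of hepatocytes. Of these, 124 had at least 2-fold more CPM in control hepatocytes than in control macrophages, against 11.4% of all genes tested, and 82 had at least 4-fold more, against 5.01%. The 145 genes included Cyp4a10, Ttr, Tat, Hnf4a and Fabp1, named after their values were seen, which serve fatty acid handling, hormone transport, amino acid breakdown and hepatocyte transcription. Of the 39 higher genes, 2 met the 2-fold rule and 0 the 4-fold rule. With the 2-fold genes left out of the table this fit called 0 genes (883 at an unadjusted p under 0.05), with the 4-fold genes left out it called 64, and with the hepatocyte marker share as a covariate it called 0 (647 at an unadjusted p under 0.05). The marker share did not overlap between the groups, so in these 8 libraries the covariate cannot be separated from genotype. In the fit of all 16 libraries the same settings called 4, 7 and 85 genes.

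The level that each macrophage library would show if its Alb came with an average hepatocyte transcriptome of the same genotype was computed from the uninjured hepatocyte libraries (6 control, 5 knockout) and set beside the measured level, both as CPM of the library total. Macrophage and hepatocyte libraries share numbers in their titles, but group means were used and no library was matched by number. Over the 23 other hepatocyte markers the measured level was a median of 1.04 times this hepatocyte-derived level in controls (0.643 to 1.32) and 0.91 times in knockouts (0.588 to 2.22). Sult3a1 measured 19.4 CPM beside a hepatocyte-derived 20.8 CPM in controls and 0.483 beside 0.682 in knockouts. In hepatocytes themselves the knockouts were lower in Sult3a1 too, and the difference there was -4.03 in log2 units (SE 0.73, adjusted p = 0.00729 by edgeR). Sult2a8 measured 58.8 beside 48.2 CPM in controls and 0.966 beside 3.06 in knockouts, and in hepatocytes its log2 fold change was -3.02 (SE 0.87, adjusted p = 0.0548 by edgeR). Hamp2 measured 116 beside 168 CPM in controls and 12.6 beside 37.7 in knockouts, with a hepatocyte log2 fold change of -1.16 (adjusted p = 0.342 by edgeR). For these 3 genes the hepatocyte-derived level was thus as large as the measured one or larger, apart from Sult2a8 in controls at 1.22 times.

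The remaining called genes stood above the hepatocyte-derived level. Oat measured 286 beside 152 CPM in controls and 121 beside 70.6 in knockouts, 1.88 and 1.71 times. Aldh9a1 measured 2.92 times the hepatocyte-derived level in controls and 3.64 times in knockouts, and Ipmk 17.3 and 18.6 times. Their own hepatocyte log2 fold changes were -0.16, -0.37 and -0.21, with adjusted p of 0.892, 0.166 and 0.599 by edgeR. Slc25a24 stood at 119 and 207 times the hepatocyte-derived level and Stap1 at 7.00 and 183 times. The hepatocyte libraries of knockout mice held more Slc25a24 too (log2 fold change 1.84, SE 0.52, adjusted p = 0.0416 by edgeR). At those levels they would add 0.223 CPM to the control and 0.406 CPM to the knockout macrophages. Kupffer cell transcripts were higher in these knockout hepatocyte libraries as well, as for Cd68 (log2 fold change 2.83, adjusted p = 0.0154 by edgeR). Clec4f averaged 65.4 CPM there, beside 8.88 CPM in control hepatocyte libraries (adjusted p = 0.0514 by edgeR). The part of macrophage RNA in the Slc25a24 difference between hepatocyte libraries was not tested.

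**Figure D3:**
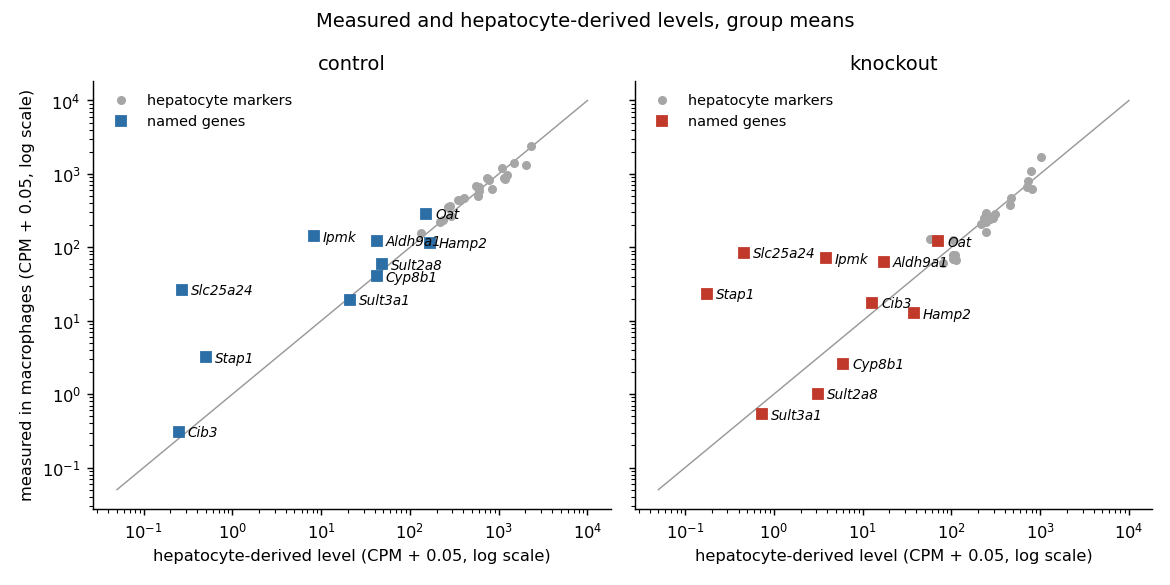
Mean measured level in macrophages against the mean hepatocyte-derived level, both in CPM of the library total + 0.05 on log axes, for control (left) and knockout (right) libraries, where the line marks equality, grey points are 23 hepatocyte markers and squares are named genes. Sult2a8, Sult3a1, Hamp2 and Cyp8b1 lie near or below the line, and Stap1, Slc25a24 and Ipmk lie far above it in both groups.

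Of the genes next in order of p, none was called. Lsp1, an actin-binding protein of leukocytes, measured 95.8, 52.2, 108 and 71.5 CPM in knockouts and 34.9, 25.5, 29.3 and 18.1 CPM in controls (log2 fold change 1.596, SE 0.30, adjusted p = 0.0509 by edgeR). Cd36, the receptor that takes up long-chain fatty acids and oxidised lipoproteins, lay at 211, 231, 201 and 211 CPM in knockouts and 63.7, 97.2, 77.1 and 116 CPM in controls (1.28, SE 0.24, adjusted p = 0.0509 by edgeR). Neither gene overlapped between the groups, and for Cd36 the knockout libraries differed among themselves by less than the controls did. Cx3cr1, the fractalkine receptor, measured 115, 42.0, 104 and 77.3 CPM in knockouts and 3.35, 33.5, 10.8 and 8.63 CPM in controls (2.63, SE 0.51, adjusted p = 0.0640 by edgeR). S100a8, a subunit of the calcium-binding protein calprotectin, measured 232, 213, 238 and 112 CPM in knockouts and 54.3, 80.5, 39.2 and 51.8 CPM in controls (1.82, SE 0.37, adjusted p = 0.0715 by edgeR). Rrm1, the large subunit of ribonucleotide reductase, ranged from 42.2 to 74.4 and from 16.7 to 28.9 CPM. These 5 genes were all called in the fit of the 8 libraries alone, also with genes 4-fold higher in hepatocytes left out. With genes 2-fold higher in hepatocytes left out, that fit called 0 genes.

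Cib3, a calcium and integrin-binding protein, differed from these genes in that its level lay near the hepatocyte-derived one. It measured 25.1, 29.7, 6.47 and 10.4 CPM in knockouts and held 3 counts in all in the controls, a ratio of 59.0 (exact 95% counting interval 19.7 to 290.3) with an adjusted p of 0.0509 by edgeR. The measured level was 1.37 times the hepatocyte-derived one in knockouts, and the hepatocyte log2 fold change was 7.13 (adjusted p = 1.25e-08 by edgeR). On the lower side Cyp8b1, the sterol 12-alpha-hydroxylase of bile acid synthesis, measured 0.823, 3.07, 0.809 and 5.20 CPM in knockouts and 35.5, 55.8, 43.4 and 50.1 CPM in controls (-4.23, SE 0.81, adjusted p = 0.0509 by edgeR). Its controls stood at 0.95 times and its knockouts at 0.42 times the hepatocyte-derived level. The knockout hepatocyte libraries behind that mean ranged from 1.09 to 216 CPM of the library total for Cyp8b1.

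A further 5 genes followed on the lower side. Chil1, a chitinase-like secreted protein, measured 5.35 to 12.1 CPM in knockouts and 114, 176, 27.8 and 30.2 CPM in control libraries 6, 7, 8 and 9 (-3.43, adjusted p = 0.0715 by edgeR), so that controls 6 and 7 stood apart. Cxcl13, a chemokine that draws B cells, ranged from 8.90 to 103 CPM in knockouts and 221 to 714 CPM in controls (-3.10, adjusted p = 0.0759 by edgeR). Herpud1, a component of the degradation machinery of the endoplasmic reticulum, ranged from 51.0 to 99.3 and from 157 to 230.3 CPM (-1.27, adjusted p = 0.0590 by edgeR). Cyb5b, an outer mitochondrial cytochrome, and Slc5a3, the sodium-dependent inositol transporter, had log2 fold changes of -0.94 and -1.55 (adjusted p = 0.0640 and 0.0715 by edgeR).

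None of the members of the 41 gene lists was called, so the lists are described by their medians beside the all-gene median near 0 and by counts of members whose knockout and control libraries did not overlap. Over all genes tested, all 4 knockouts lay above all 4 controls in 3.77% and below them in 5.06%. Of 24 hepatocyte markers, 22 had a negative log2 fold change, 17 lay lower without overlap, and the median was -1.48. Ttr, transthyretin, lay at 438 to 962 CPM in knockouts and 2221 to 3184 CPM in controls without overlap, yet was not called (-2.12, SE 0.99, adjusted p = 0.46 by edgeR). Tat, tyrosine aminotransferase, ranged from 42.8 to 96.3 and from 239 to 674 CPM (-2.63, SE 1.19, adjusted p = 0.45 by edgeR). This fit holds the CCl4 libraries, in which Alb varied between 228 and 19759 CPM. In the fit of the 8 libraries alone 10 of the 24 markers were called lower.

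The list of 19 lipid-associated macrophage genes held no called gene. Of its members 17 had a positive log2 fold change, 8 lay higher without overlap and the median was 0.94. As a share of the total its genes summed to 21510.1, 22564, 17284 and 20532 CPM in knockout libraries 4, 5, 20 and 21, and to 11830.2, 9479.8, 13489 and 14405 CPM in control libraries 6, 7, 8 and 9. Lpl, which hydrolyses triglyceride in lipoproteins, measured 2029, 1874, 1883 and 1640.4 CPM in knockouts and 1492, 638, 470.3 and 488 CPM in controls (1.27, SE 0.38, adjusted p = 0.218 by edgeR), with control library 6 far above the other controls. Ctsd, the lysosomal aspartic protease cathepsin D, ranged from 1233 to 1881 and from 586 to 826 CPM (1.08, SE 0.30, adjusted p = 0.18 by edgeR). Lgals3, a galactoside-binding lectin of activated macrophages, ranged from 524 to 971 and from 273 to 440 CPM, and Mmp12, macrophage elastase, from 112 to 184 and from 11.2 to 84.4 CPM. Cd36, Ctsd and Lgals3 were called in the fit of the 8 libraries alone, which called 0 genes with those 2-fold higher in hepatocytes left out. Gpnmb, a lysosomal glycoprotein, was high in knockout library 4 at 220.5 CPM, followed by 71.7 in library 5, and overlapped the controls otherwise (10.4 to 50.2 CPM). Spp1, the osteopontin gene whose promoter drives the Cre, had overlapping groups (23.9 to 119.7 CPM in knockouts, 52.9 to 159 CPM in controls). The list kept a median of 1.01 without controls 6 and 7 and of 0.74 without knockouts 20 and 21.

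Among 17 LXR targets and efflux genes the median was 0.25, with 3 higher (Abcg1, Scd2 and Lpl) and 1 lower (Apoc4) without overlap. Abcg1, which exports cholesterol to lipoproteins, ranged from 325 to 880.1 CPM in knockouts and 148 to 212 CPM in controls (1.43, adjusted p = 0.253 by edgeR). Scd2, a fatty acid desaturase, ranged from 77.3 to 334 and from 14.7 to 65.7 CPM. Of 24 cholesterol synthesis genes 21 had a negative log2 fold change, 5 lay lower without overlap and the median was -0.50. Hsd17b7, which acts late in that pathway, ranged from 7.80 to 18.9 CPM in knockouts and 29.3 to 51.8 CPM in controls (-1.73, adjusted p = 0.158 by edgeR). Of the 5 that lay lower, Hsd17b7, Msmo1, Ebp and Sc5d had at least 2-fold more CPM in control hepatocytes than in control macrophages, and Stard4 did not. The list's median came to -0.09 without knockouts 20 and 21, the libraries with the lowest hepatocyte marker share (0.675% and 0.960%), and the part of hepatocyte RNA in it was not tested. Scavenger and efferocytosis receptors had a median of 0.03, and within them only Cd36 and Colec12, a scavenger receptor of the collectin family (59.8 to 113 and 17.4 to 31.9 CPM), lay higher without overlap.

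**Figure D4:**
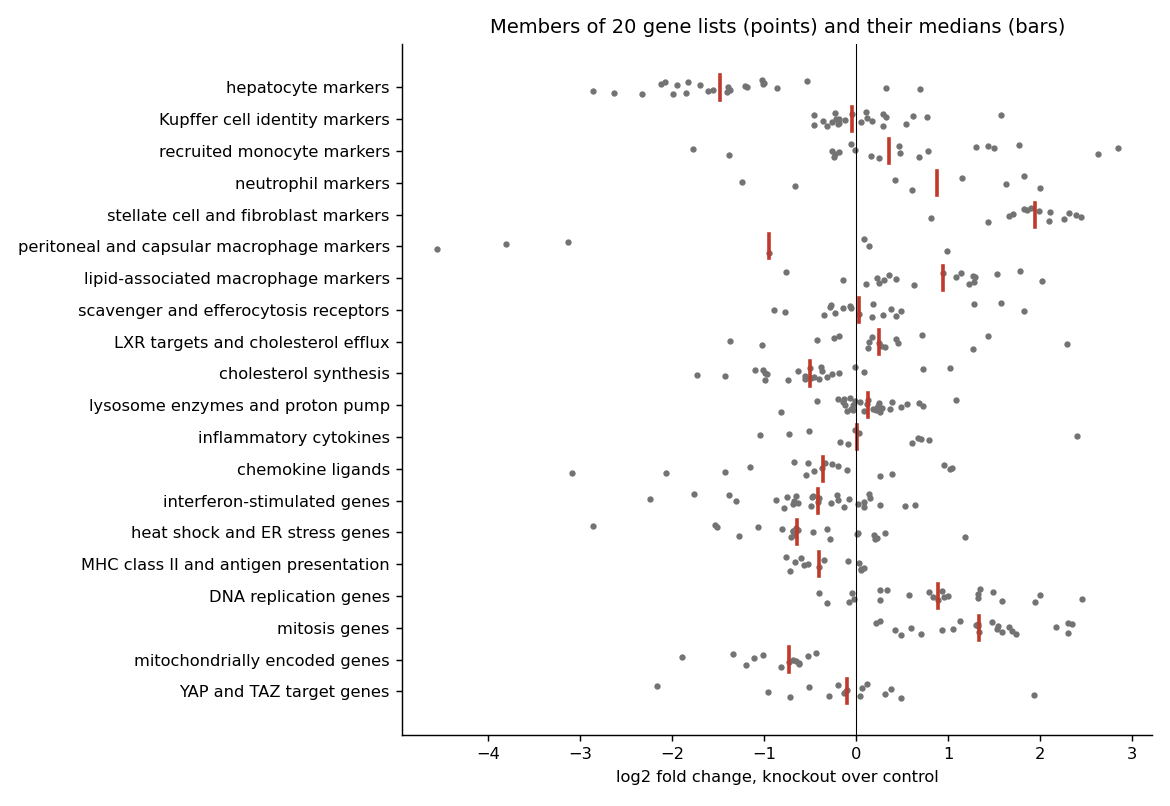
Log2 fold change of knockout over control macrophages for each member tested of 20 gene lists (points) and the median of each list (bars), with positive values higher in knockouts. Medians run from -1.48 for hepatocyte markers and -0.95 for peritoneal and capsular macrophage markers to 1.94 for stellate cell and fibroblast markers.

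Among markers of other cell types, the summed stellate cell and fibroblast list was higher in every knockout than in any control. The 14 stellate cell and fibroblast markers were all positive (median 1.94), 5 lay higher without overlap, and their sum was highest in knockout libraries 20 and 21 (5219 and 6784 CPM of the library total), with 1573 and 1501 CPM in knockouts 4 and 5 and 528 to 1147 CPM in controls. Rgs5, a marker of pericytes and stellate cells, measured 264 and 437 CPM in libraries 20 and 21, 46.1 and 58.4 CPM in libraries 4 and 5, and 19.5 to 57.3 CPM in controls. Without knockouts 20 and 21 the median of the list was 0.61. Col14a1, Col4a1, Col4a2, Plvap and Mgp, genes of stellate or endothelial cells and matrix, were among the 39 genes higher in the fit of the 8 libraries, and the part of these cells in that count was not tested. Sinusoidal endothelial markers had a median of -0.21 and summed to 2017 to 4788 CPM in knockouts and 2702 to 3514 CPM in controls. Biliary markers, the cell type targeted by the deletion, summed to 276 to 339 CPM of the library total in knockouts and 192 to 277 CPM in controls over 15 genes, with Krt18 and Anxa3 as the largest parts. Of the 15 genes 4 were tested, and Anxa3 alone took 163 to 196 CPM in knockouts and 91.8 to 183 CPM in controls. The part of biliary cells in the sum was not tested.

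Control libraries 6 and 7 stood apart by another set of genes. The 10 peritoneal and capsular macrophage markers, of which 7 were tested, summed to 1979.8 and 3046 CPM of the library total there, to 634 and 426 CPM in controls 8 and 9, and to 258 to 572 CPM in knockouts. Prg4, lubricin, measured 212 and 289 CPM in controls 6 and 7, 61.1 and 38.8 CPM in controls 8 and 9, and 9.22 to 25.9 CPM in knockouts. Saa3, an acute-phase protein, followed the same order with 1357 and 2956, then 254 and 179, then 21.8 to 100.1 CPM. Both genes were lower in every knockout than in the lowest control. Acinar pancreas markers, of which 4 were tested (median -5.03), summed to 334 and 235 CPM of the library total in controls 6 and 7 and to 21.8 to 56.0 CPM elsewhere, as with Pnlip, pancreatic lipase, at 52.3 and 39.0 CPM there, 0 in controls 8 and 9, and 1 count over the 4 knockouts.

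Of 20 recruited monocyte markers 12 were positive (median 0.36), against 49.4% of all genes tested, with 2 higher and 1 lower without overlap. Ccr2, the receptor for monocyte chemoattractant, ranged from 72.7 to 140.4 CPM in knockouts and measured 5.37, 74.9, 21.8 and 19.9 CPM in controls, and Vcan, versican, ranged from 3.25 to 17.4 and from 0 to 2.59 CPM. Fn1, fibronectin, lay the other way, at 141 to 298 CPM in knockouts and 463 to 1335 CPM in controls (-1.77, SE 0.45, adjusted p = 0.159 by edgeR). The summed monocyte list overlapped, at 5797 to 6599 CPM of the library total for knockouts and 4979.9 to 7554 CPM in controls. Of 8 neutrophil markers tested 6 were positive and 2 lay higher without overlap (median 0.88), and the list of 14 summed to 276 to 368 CPM in knockouts and 83.9 to 166 CPM in controls. S100a9, the partner of S100a8, ranged from 32.4 to 72.7 and from 18.8 to 33.5 CPM, and Il1r2, a decoy receptor, from 4.85 to 9.87 and from 0 to 3.97 CPM.

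No member of the inflammatory and stress lists was called, and several of their medians moved when control libraries 6 and 7 were left out. The 12 inflammatory cytokines had a median of 0.01, with Il12b, the shared subunit of interleukins 12 and 23, at 23.4 to 62.3 CPM in knockouts and 1.73 to 15.1 CPM in controls (2.40, SE 0.82, adjusted p = 0.288 by edgeR). The 18 chemokines had a median of -0.36. Of 29 interferon-stimulated genes 21 were negative, 6 lay lower without overlap and the median was -0.42. Ifit1, an antiviral RNA-binding protein, measured 8.19 to 28.6 CPM in knockouts and 89.2, 39.0, 29.1 and 31.9 CPM in controls, and Oasl1 measured 30.5 to 37.4 CPM in knockouts and 471, 77.3, 51.1 and 57.0 CPM in controls, with control library 6 highest in both. Of 22 heat shock and endoplasmic reticulum stress genes 15 were negative, 8 lay lower without overlap and the median was -0.65. Dnajb1, a chaperone of the heat shock response, measured 47.7 to 70.7 CPM in knockouts and 371, 184, 88.2 and 81.1 CPM in controls, and Hsph1, another chaperone, 35.6 to 47.3 and 63.0 to 107 CPM. Without controls 6 and 7 the medians of the cytokine, chemokine, interferon and heat shock lists were 0.91, 0.20, -0.27 and -0.17. Of 13 mitochondrially encoded genes all were negative (median -0.73, and -0.33 without controls 6 and 7), 2 lay lower without overlap, and mt-Nd4l ranged from 61.1 to 134 CPM in knockouts and 172 to 770.4 CPM in controls (-1.90, SE 0.40, adjusted p = 0.086 by edgeR).

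Genes of proliferation and antigen presentation divided the knockout libraries. All 24 mitosis genes had a positive log2 fold change (median 1.33), but 0 lay higher without overlap, and their sum, as CPM of the library total, was 1050.2 in knockout library 20, 461 in library 21, 302 in library 4 and 215 in library 5, beside 155 to 259.9 CPM in controls. Cenpe, a kinetochore motor, reached 97.9 CPM in library 20 and 14.3 to 39.0 CPM in the other knockouts, beside 4.03 to 22.5 CPM in controls. Without knockouts 20 and 21 the median was 0.44. The 23 DNA replication genes, median 0.89, with Rrm1 and Mcm2 higher without overlap, kept a median of 1.17 without these libraries, and Tk1, thymidine kinase, ranged from 27.3 to 81.9 CPM in knockouts and 11.2 to 28.9 CPM in controls (1.59, adjusted p = 0.158 by edgeR). H2-Aa and Cd74, of MHC class II antigen presentation, were lower in knockouts 4 and 5 than in the other libraries. H2-Aa measured 198 and 513 CPM in knockout libraries 4 and 5, 2091 and 2384 CPM in libraries 20 and 21, and 1661 to 2752 CPM in controls. Cd74, the invariant chain, measured 350.4 and 649 CPM in libraries 4 and 5 and 1417 to 2099 CPM in all others. The list of 13 had a median of -0.40, and of -1.30 without knockouts 20 and 21. Markers of T and NK cells were low in the same libraries and summed to 44.5 and 53.1 CPM of the library total in knockouts 4 and 5, 130.2 and 289.6 CPM in knockouts 20 and 21, and 99.9 to 119 CPM in controls. B and plasma cell markers summed to 191 and 263, then 419 and 538, and 182 to 213 CPM in controls. The part of these cells in the MHC class II values was not tested.

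The 16 YAP and TAZ target genes tested had a median of -0.11 and the 11 Hippo pathway genes a median of -0.07, with 1 and 0 members higher without overlap and 0 members lower in both. The remaining lists had medians between -0.70 (16 bile acid and steroid receptors, a list that also holds transporters and formyl peptide receptors) and 0.61 (3 platelet markers). In the former, Slc10a1, the bile acid importer of hepatocytes, the formyl peptide receptors Fpr1 and Fpr2, and Rxra lay lower without overlap. The remaining lists also covered dendritic, B and plasma, T and NK and erythroid cells, NF-kB feedback, alternative activation, lysosomes, iron, immediate early genes, complement, growth factors, proteases, oxidative stress, glycolysis, p53 targets and the clock. Some turned or moved when libraries were left out. Without controls 6 and 7 matrix proteases and inhibitors went from -0.20 to 0.84, NF-kB feedback genes from -0.09 to 0.23, growth factors from 0.10 to 0.43, and erythroid and platelet markers from 0.15 to 0.64 and from 0.61 to 1.05. Without knockouts 20 and 21 T and NK cell markers went from -0.14 to -1.32 and clock genes from -0.29 to 0.21.

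Whether the genotype difference depended on injury was tested as an interaction, which shares the 8 libraries above with the first comparison. The interaction called 12 genes (0.111%). For 8 of them, Cd36, Stap1, Lsp1, Emp1, Gdf3, Lpl, Lgals3 and Myo5a, the log2 fold change was positive without CCl4 and negative after it. Cd36 had log2 fold changes of 1.28 (SE 0.24) without and -0.92 (SE 0.24) after CCl4, an interaction of -2.20 (SE 0.34, adjusted p = 0.0119 by edgeR). Its controls measured 63.7 to 116 CPM without and 305 to 675 CPM after CCl4, while its knockouts measured 201 to 231 and 219 to 271 CPM, so that the knockout libraries with and without CCl4 overlapped. Stap1 had log2 fold changes of 2.54 and -0.91 (interaction -3.46, SE 0.59, adjusted p = 0.0278 by edgeR), with 26.3 to 67.6 CPM in controls and 11.2 to 29.4 CPM in knockouts after CCl4. Emp1, an epithelial membrane protein also found in activated macrophages, measured 22.1 to 29.5 and 55.0 to 84.0 CPM in controls and knockouts without CCl4, and 159.8 to 355 and 32.3 to 95.5 CPM after it. Its interaction was -3.38 (SE 0.44, adjusted p = 0.00409 by edgeR), and it was the only one of the 12 called between genotypes after CCl4 (-1.96, adjusted p = 0.0463 by edgeR). Gdf3, a ligand of the TGF-beta family, measured 0 to 2.42 and 8.19 to 14.6 CPM without and 21.8 to 54.5 and 3.59 to 12.4 CPM after CCl4 (interaction -5.55, adjusted p = 0.0119 by edgeR).

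The other 4 genes of the interaction, Sult2a8, Cyp2c54, Mettl7a1 and Gpc3, had negative log2 fold changes without CCl4 and positive ones after it. Sult2a8 measured at most 3.11 CPM in the controls and 5.14 CPM in the knockouts after CCl4, beside 45.7 to 104 CPM in the controls without it (interaction 7.12, SE 1.11, adjusted p = 0.0119 by edgeR). Cyp2c54, a hepatocyte cytochrome P450, measured 31.9 to 56.3 CPM in controls and 1.23 to 5.12 CPM in knockouts without CCl4, and 0 to 1.04 and 0 to 13.2 CPM after it. Knockout libraries 13 and 14 held 7.86 and 13.2 CPM of it, and the other knockouts after CCl4 held 0. Alb was also highest there (19759 and 16096 CPM), beside 1831 and 1819 CPM in those knockouts and 228 to 9284 CPM in controls. With the hepatocyte share as a covariate the interaction called 11 genes, 8 of the 12 among them and 0 at least 4-fold higher in hepatocytes. The part of hepatocyte RNA in these genes was not tested. One of the libraries after CCl4, number 11, is a control by its genotype and group labels and a knockout by its description. With it left out 8 of the 12 genes were called, and with it moved to the knockouts 2 were, Cd36 and Stap1 (adjusted p = 0.0302 for each by edgeR).

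**Figure D5:**
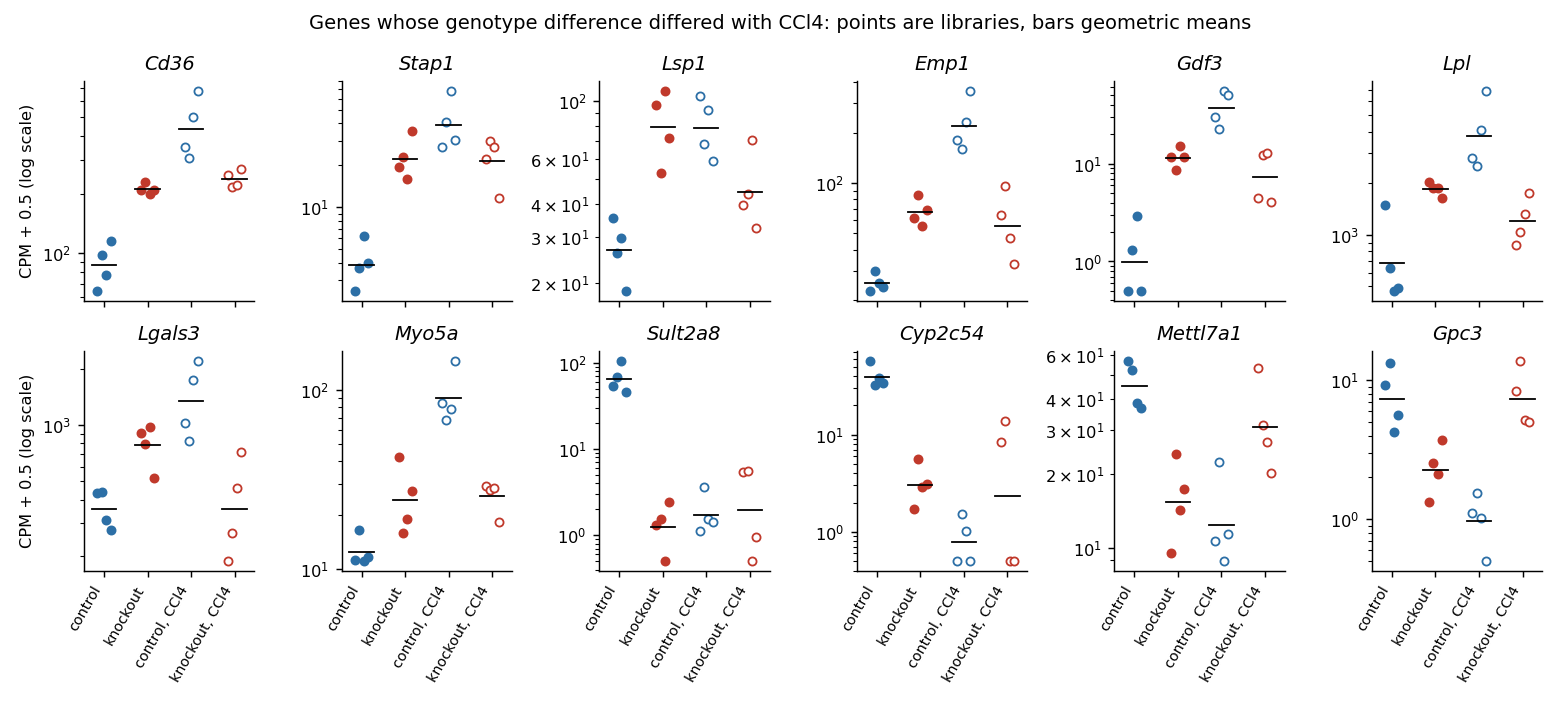
CPM + 0.5 on log axes for the 12 genes called in the interaction, with 1 point per library (open points after CCl4), controls in blue, knockouts in red and the geometric mean of each group as a bar. For 8 genes the knockout mean lies above the control mean without CCl4 and below it after CCl4, as for Emp1 with 55.0 to 84.0 against 22.1 to 29.5 CPM and then 32.3 to 95.5 against 159.8 to 355 CPM.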

How the data were processed

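Macrophages were sorted as F4/80+ CD45+ cells without propidium iodide, and 50 bp QuantSeq 3′ forward libraries were made, per the labels' protocols. The submitters' processing notes name Trimmomatic 0.39, HISAT2 2.1.0 and GRCm38/mm10. Raw counts of reads for 26233 gene symbols were deposited, 1 column per library. No source used here names the counter, annotation or strand setting, so antisense and overlapping genes may share reads. The 4 macrophage groups were fitted together with edgeR 4.0.16 (R 4.3.3) after filterByExpr, with TMM factors, robust dispersion, the quasi-likelihood F test and Benjamini-Hochberg adjustment at 0.05. SEs are approximate, the log2 fold change divided by the root of F. Intervals and floors cover counting error only. No library was a copy of another: within groups, pairs had a chi-square of 7.12 to 25.5 per degree of freedom. Positions are from GENCODE (GRCm38). Genes were named by a rule: Yap1, Wwtr1 and Alb, all called genes of at least 10 CPM, the 6 of lowest p each way that were not called, up to 4 of lowest p per list, the markers and the interaction calls. Others were named after their values were seen. The comparison, lists and rule were chosen with earlier results of these data known. Simulated counts served as a test of the scripts. There the fit of 4 groups recovered 65.3% of 4-fold and 7.37% of 2-fold changes, and 2.74% of its calls were false. For the fit of 8 libraries these values were 66.7%, 3.33% and 9.23%. Most simulated 2-fold changes were missed, so a gene that was not called may still differ. Other settings tried were no filter, RLE factors, DESeq2 1.42.0, voom of limma 3.58.1, a fit that was not robust, the file series or the hepatocyte share as a term, genes at least 4-fold higher in hepatocytes left out, thinning, library 11 left out or moved, the 8 libraries alone and each library left out. A further 10 were chosen after seeing the data.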

Additional observations from a re-analysis of the deposited data

Results flagged for a closer look

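In 12 genes the genotype difference itself differed with CCl4 by the interaction test of edgeR. On the log2 scale the interaction was -3.38 for Emp1, 7.12 for Sult2a8, -2.20 for Cd36, -3.01 for Myo5a, -5.55 for Gdf3, -3.46 for Stap1, -2.43 for Lsp1, -2.98 for Lpl, -2.96 for Lgals3, 7.77 for Cyp2c54, 2.93 for Mettl7a1 and 5.57 for Gpc3. The values of Cyp2c54 and Gpc3 depend on few counts in the control libraries after CCl4 (0 to 1.04 and 0 to 1.04 CPM).

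Among 172 pairs of a gene and a group of 4 libraries, 10 had 1 library far from the others by Dixon's ratio, where chance gives about 1 in 20. Control library 6 was high for Adgre1 (1115 CPM), Lpl (1492 CPM), Ifit1 (89.2 CPM) and Oasl1 (471 CPM). Control library 7 was low for Ctsd (586 CPM) and high for Myo5a (15.9 CPM), and control library 8 was low for Ipmk (125 CPM). Knockout library 5 held the only Sult3a1 (2.05 CPM) and knockout library 21 the only Pnlip (0.65 CPM). After CCl4, knockout library 18 was low for Myo5a (17.9 CPM).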

How the results depend on the processing

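The 8 calls became 65 with no filter, 152 with DESeq2, 33 with limma voom, 5 with a fit that was not robust, 85 with the hepatocyte share as a covariate and 184 in the 8 libraries alone. They became 4 with genes 2-fold higher in hepatocytes left out, 1 without controls 6 and 7, 0 without knockouts 20 and 21, and 1 to 10 with each library left out. The 12 interaction calls became 90 with no filter, 162 with DESeq2, 6 after thinning, 2 with library 11 as a knockout, 6 without knockouts 20 and 21, and 4 (without knockout library 13) to 43 (without control library 12) with each library left out. The 184 calls of the 8 libraries became 467 with DESeq2, 64 or 0 with genes 4-fold or 2-fold higher in hepatocytes left out, 0 with the hepatocyte share as a covariate, and 53 to 301 with each library left out. The log2 difference in Alb was -1.28 to -0.70 with each library left out, and -1.08 for the summed list (exact permutation p = 0.0286). The cause of these shifts was not tested. RLE factors, the file series as a term, genes 4-fold higher in hepatocytes left out, thinning, and library 11 left out or moved gave 6 to 10 calls. Of the 8 genes first called, 4 (after thinning) to 8 (with RLE factors) were among them. No call changed sign. No paired analysis was possible because the labels give no replicate numbers that tie a knockout library to a control. Depth limits genes under 2.90 CPM, the floor in the shallowest library.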
